A study of Mus musculus with 28 samples.

Results

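The genes described here are very long neuronal genes listed apart from the families of adhesion molecules, 44 mouse genes for scaffold, signalling, transcription, genome-maintenance and other functions. A probe set stood for a gene where its only gene symbol in the platform annotation was that of the gene, and where a gene had several such probe sets the brightest by its mean over the 28 arrays was used. Among them Adgrb3, an adhesion G protein-coupled receptor, bears adhesion in its class name. Of the 44 genes 42 were measured, out of 19938 genes in all, and 8 of the 42 had several probe sets. Magi2 and Immp2l are not analysed here. The values that chose the probe sets were mean levels over all arrays, which lay between 5.04 for Lrp1b and 9.58 for Tcf4. The arrays, Affymetrix whole-transcript designs, carried total RNA of 129SvEv mouse cells in 12 groups. Top2β knockout cells and wild-type cells were compared as embryonic stem (ES) cells, neuronal progenitor (NP) cells and at TN day 2, with 2 arrays per group, and at TN day 6, with 3 arrays per group. Cells at TN day 5 had received ICRF-193 or DMSO, with 2 arrays each, and their genotype is not labelled. Glutamatergic neurons isolated from the cortex at E16.5, an embryonic stage, had received ICRF-193 or DMSO, with 3 arrays each. All samples carry one treatment description, ICRF-193 at 50 µM or DMSO, renewed every 24 h between TN day 2 and TN day 5. What TN stands for, how the knockout was made and whether replicates came from separate cultures or animals are not given by the labels, so p-values measure only the spread between these arrays.

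Topoisomerase IIβ, encoded by Top2b, passes one DNA duplex through another and so relieves the twisting that transcription builds up along a gene. It is the form of the enzyme that neurons keep after their last division, while its paralog Top2a belongs to dividing cells. ICRF-193 inhibits both forms by holding the enzyme closed around DNA. Very long genes take long to transcribe, and many of them are active in neurons, where they encode scaffolds, receptors and regulators of gene expression.

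By the RefSeq annotation of GRCm38.p6 the 42 genes spanned between 193.0 kb (Brinp1) and 2058.3 kb (Lrp1b), with a median of 795.7 kb against 17.7 kb over all genes with a span. Of the 42, 41 spanned over 300 kb, 32 over 500 kb and 17 over 1000 kb. Another 490 measured genes spanned over 300 kb. In wild-type cells 32 of the 42 genes had their highest mean at TN day 6, 3 at TN day 2 (Akap6, Prkg1 and Zbtb20), 5 in NP cells (Arid1b, Foxp1, Foxp2, Rora and Tcf4) and 2 in ES cells (Pde4d and Fhit). The name neuronal therefore fitted the levels of most of the genes and not of all.

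Array medians lay between 6.12 and 6.43 on the log2 scale. Arrays of one group correlated at 0.99 or above in 11 groups and at 0.967 in knockout ES cells, whose arrays stood apart from each other. Top2b measured 7.11 and 5.79 in knockout ES cells against 7.96 and 7.52 in wild-type ES cells, and 6.89 and 6.77 in knockout NP cells against 9.17 and 9.1 in wild-type NP cells. It measured 8.99 and 8.94 in knockout cells against 11.40 and 11.35 in wild-type cells at TN day 2, and 9.04, 8.68 and 9.0 in knockout cells against 11.32, 11.19 and 11.15 in wild-type cells at TN day 6. The genotypes did not overlap at any stage, and wild-type levels were higher at TN day 2 and TN day 6 than before. The files do not tell which exons the knockout removed or whether the probes cover them. Cell identity was checked on summed log2 levels of marker genes. In wild-type cells 12 pan-neuronal markers summed to 86.5 to 88.2 in ES cells, 108.2 to 110.3 in NP cells, 130.8 to 131.7 at TN day 2 and 132.1 to 132.5 at TN day 6. In cortical neurons 6 glutamatergic markers summed to 57.5 to 57.7 with ICRF-193 against 59.3 to 59.8 with DMSO, above the 45.3 to 45.8 of wild-type cells at TN day 6. The cortical cultures also carried signal of 7 GABAergic markers, at 64.1 to 64.8 with ICRF-193 against 62.2 to 62.5 with DMSO, above the 51.5 to 52.1 of wild-type cells at TN day 6. Since each array holds RNA of a whole culture, fewer cells of a type and less RNA per cell cannot be told apart in any of the comparisons.

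The stretches upstream of 6 genes are printed because Ctnna2 and Dpp10 had the lowest median change over the 4 comparisons of TN and cortical cells among the genes with a listed window that fell in all 4, while Fhit, Pde10a, Rora and Zbtb20 were the 4 genes called in none of the 6 comparisons. A gene without a call is not thereby shown to be unchanged. Fhit and Pde10a had 2 listed windows each, of which the first is printed. Each is the 250 bases before the RefSeq transcript start in GRCm38.p6, read 5′ to 3′ on the gene's own strand, and capitals mark the GC box GGGCGG on either strand. The windows lie at chr6:77979668-77979917 on the minus strand, chr1:124045560-124045809 on the minus strand, chr14:11162036-11162285 on the minus strand, chr17:8801495-8801744 on the plus strand, chr9:68653536-68653785 on the plus strand and chr16:43247034-43247283 on the plus strand.
Ctnna2: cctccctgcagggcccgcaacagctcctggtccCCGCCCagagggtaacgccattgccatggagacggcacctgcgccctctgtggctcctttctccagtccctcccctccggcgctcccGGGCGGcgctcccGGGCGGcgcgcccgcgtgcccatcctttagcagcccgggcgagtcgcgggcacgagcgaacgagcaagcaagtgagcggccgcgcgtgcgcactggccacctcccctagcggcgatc
Dpp10: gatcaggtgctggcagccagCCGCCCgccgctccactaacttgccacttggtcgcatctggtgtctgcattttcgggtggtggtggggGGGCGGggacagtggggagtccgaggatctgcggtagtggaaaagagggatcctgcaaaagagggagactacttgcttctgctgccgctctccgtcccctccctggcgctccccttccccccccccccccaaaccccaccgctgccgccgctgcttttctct
Fhit: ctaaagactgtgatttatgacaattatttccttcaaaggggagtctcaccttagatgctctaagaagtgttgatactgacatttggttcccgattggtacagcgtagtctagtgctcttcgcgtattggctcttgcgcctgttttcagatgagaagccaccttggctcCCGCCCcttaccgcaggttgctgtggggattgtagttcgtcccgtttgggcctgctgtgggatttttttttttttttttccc
Pde10a: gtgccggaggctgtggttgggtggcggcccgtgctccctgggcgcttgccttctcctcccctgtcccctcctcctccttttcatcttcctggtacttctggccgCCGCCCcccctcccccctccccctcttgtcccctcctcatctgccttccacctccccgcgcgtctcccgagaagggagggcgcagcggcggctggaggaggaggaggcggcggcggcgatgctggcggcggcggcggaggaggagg
Rora: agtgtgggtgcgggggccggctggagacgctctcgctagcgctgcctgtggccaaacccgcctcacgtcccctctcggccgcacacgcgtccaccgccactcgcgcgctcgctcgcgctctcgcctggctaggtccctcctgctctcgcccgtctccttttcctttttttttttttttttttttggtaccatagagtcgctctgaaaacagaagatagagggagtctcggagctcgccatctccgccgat
Zbtb20: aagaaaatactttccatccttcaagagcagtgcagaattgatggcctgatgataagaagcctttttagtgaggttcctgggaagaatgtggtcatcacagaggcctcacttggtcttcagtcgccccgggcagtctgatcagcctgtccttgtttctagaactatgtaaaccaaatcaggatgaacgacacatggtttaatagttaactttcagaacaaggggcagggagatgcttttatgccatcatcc
The Ctnna2 window held 3 GC boxes and 30 CpG dinucleotides at 73.2% G and C, and the Dpp10 window held 2 GC boxes and 14 CpG dinucleotides at 65.2%. The printed Fhit window held 1 GC box and 9 CpG dinucleotides at 46.8%, and that of Pde10a 1 and 21 at 72.8%. The Rora window held 0 GC boxes and 26 CpG dinucleotides at 61.2%, and the Zbtb20 window held 0 and 3 at 44.8%. RefSeq promoter windows were matched for 30 of the 42 genes, 48 windows in all. GC boxes stood in 47.9% of those windows against 32.7% of all 32841 windows. The share was 44.0% of 25 windows of genes that fell in all 4 comparisons and 50.0% of 6 windows of the genes called in none. The E box CANNTG, also searched on both strands and able to overlap a GC box, stood in 72.0% and 83.3% of these windows and in 66.2% of all windows. A match is a description of letters and not of a binding site.

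In wild-type cells most of these genes rose in steps along differentiation. From ES to NP cells 26 of the 42 rose and 1 fell, where 21.7% of all genes rose and 24.5% fell, with a median change of 0.62 against 0.05 over all genes. From NP cells to TN day 2, 23 rose and 4 fell, with medians of 0.66 for the 42 and -0.08 for all genes, of which 21.6% rose and 26.6% fell. Median centring gave 25 and 4, medians of 0.80 and 0.05, and 26.4% and 20.3% of all genes. From TN day 2 to TN day 6, 27 rose and 2 fell, where 16.7% of all genes rose and 11.9% fell, with medians of 0.58 and 0.09. The roles differed in when they rose. From ES to NP cells 7 of 7 scaffold and junction genes and 9 of 10 transcription, chromatin and RNA genes rose, against 4 of 14 membrane and secreted genes. From TN day 2 to TN day 6, 12 of 14 membrane and secreted genes rose, with 3 of 7 scaffold genes and 3 of 10 transcription genes. These counts describe single tests, and the difference between roles was not tested. Foxp2, a forkhead transcription factor, rose by 3.94 from ES to NP cells and fell by TN day 2 (-2.36 ± 0.23, adjusted p = 1.35e-08). Ctnna2, which encodes the neuronal alpha-catenin, had the largest step of the 42 between NP cells and TN day 2 (3.72 ± 0.15, adjusted p = 4.71e-14), and Dpp10 the largest from TN day 2 to TN day 6 (2.64 ± 0.16, adjusted p = 2.24e-10).

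In ES cells and NP cells none of the 42 genes was called between knockout and wild type by limma at an adjusted p under 0.05. Over all genes 0.351% were called in either direction in ES cells and 0.627% in NP cells, so a count of 0 was near the background. Some of the 42 genes read low before TN. In NP cells the wild-type means were 4.62 for Galnt13, 4.69 for Dpp10 and 5.28 for Dlg2, below a cut of 6.7 used to filter low values. Others read above that cut, such as Ank3 at 9.03. Whether a fall of the low genes could be seen at these stages was not tested. At an unadjusted p under 0.05 there were 7 of the 42 genes in ES cells, where 15.0% of all genes passed, and 4 in NP cells, where 7.53% did. The changes ran between -0.38 (Dab1) and 0.97 (Prkg1) in ES cells, with a median of 0.10 against 0.01 over all genes, and between -0.54 (Ank2) and 0.28 (Foxp1) in NP cells, with a median of -0.07 against -0.02. The ES comparison rested on the knockout arrays that stood apart. Prkg1, a cGMP-dependent protein kinase, measured 6.59 and 4.78 in knockout ES cells against 4.75 and 4.68 in wild-type ES cells, and Pde10a, a cyclic nucleotide phosphodiesterase, measured 8.08 and 6.12 against 6.79 and 6.6 in the same groups. Knockout replicate 1 was high for both genes, and replicate 2 was near the wild-type arrays for Prkg1 and below them for Pde10a. Without knockout ES replicate 2, 14 of the 42 genes were called higher and 1 lower, and over all genes 14.1% were higher and 11.0% lower in that fit. Without replicate 1, Pde10a alone of the 42 was called, and was lower, with 0.015% of all genes higher and 0.281% lower. The markers past the test with a change of 1 or more were C1qc, higher in knockout ES cells, and Slc1a3, lower in knockout NP cells.

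At TN day 2, 23 of the 42 genes fell in knockout cells and 0 rose, where 5.97% of all genes fell and 5.49% rose. The median change of the 42 was -0.50 against -0.04 over all genes. In 30 of the 42 genes both knockout arrays lay below both wild-type arrays, a pattern that 31.2% of all genes showed. By role, 5 of 7 scaffold and junction genes, 2 of 5 signalling genes and 5 of 10 transcription, chromatin and RNA genes fell. So did 1 of 4 genome-maintenance and housekeeping genes, which was Btbd9, a BTB domain protein. Of the rest, 8 of 14 membrane and secreted genes and both glycosyltransferases fell. With only the arrays of this comparison in the fit 12 genes were called, and without knockout replicate 2, 13. Under every alternative 10 of the 23 calls held: Akap6, Ctnna2, Ctnnd2, Rbfox1, Adgrb3, Brinp1, Dpp10, Grid1, B3galt1 and Galnt13. A test of the difference from the knockout effect in NP cells called 12 of the 42, all lower at TN day 2, where 1.33% of all genes were lower and 1.38% higher in that test. Without single arrays of either stage 4 to 14 were called. Dlg2, Dpp10 and Galnt13, among the 12 of the main fit, had the low NP levels given above. Auts2 and Ctnnd2, also among the 12, had wild-type NP means of 9.6 and 8.85. Markers of neurons and of other cell types moved at the same stage. Of 12 pan-neuronal markers 7 fell in knockout cells, and their summed level was 123.5 to 127.0 in knockout cells against 130.8 to 131.7 in wild-type cells. Among 7 cell cycle markers 3 rose (68.1 to 68.3 in knockout cells against 63.6 to 64.9 in wild-type cells), and among 7 mesenchymal markers 3 rose (67.2 to 70.1 in knockout cells against 52.1 to 65.1 in wild-type cells). Markers past the test with a change of 1 or more were Acta2, Col1a1, Tagln and Kdr, which were higher, and Hes5, Pax6, Slc17a6 and Syt1, which were lower. Their part in the fall of the long genes was not tested.

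At TN day 6, 31 of the 42 genes fell in knockout cells and 2 rose, where 4.8% of all genes fell and 5.38% rose. After centring each array on its median, 31 fell and 1 rose, and 8.69% of all genes fell and 3.93% rose. The median change of the 42 was -0.78 against 0.00 over all genes. In 35 of them all 3 knockout arrays lay below all 3 wild-type arrays, against 15.8% of all genes. The genes that fell were 6 of 7 scaffold and junction genes, 3 of 5 signalling genes and 5 of 10 transcription, chromatin and RNA genes. They also included 3 of 4 genome-maintenance and housekeeping genes, 12 of 14 membrane and secreted genes and both glycosyltransferases. All 23 genes that fell at TN day 2 fell at TN day 6 as well, as did 1.27% of all genes. Another 8 fell at TN day 6 and not at TN day 2, a pattern of 3.53% of all genes: Magi1, Pde4d, Wwox, Macrod2, Csmd1, Csmd3, Lrp1b and Sgcz. For Macrod2 and Csmd3 this held on the brightest probe set only. On the mean of all probe sets both were called lower at TN day 2 (-0.95, adjusted p = 2.18e-06, and -0.42, adjusted p = 0.0241). A test of the difference between the knockout effects of TN day 6 and TN day 2 called 6 of the 42 genes, all further below 0 at TN day 6: Astn2, Csmd1, Dpp10, Galnt13, Lrp1b and Sgcz. Over all genes 2.09% were lower and 2.71% higher in that test, and 2.97% lower and 1.95% higher after median centring. Without wild-type TN day 2 replicate 1, 3 of the 42 were called. Neural progenitor markers rose in 6 of 9 cases, with summed levels of 79.8 to 83.3 in knockout cells against 71.4 to 72.5 in wild-type cells, and all 7 measured cell cycle markers rose (53.5 to 56.9 in knockout cells against 46.8 to 48.4 in wild-type cells). Among 12 pan-neuronal markers 2 rose and 1 fell, and their summed levels overlapped at 131.5 to 132.3 in knockout cells and 132.1 to 132.5 in wild-type cells. Markers past the test with a change of 1 or more were Bub1, Cdk1, Mcm6, Mki67, Top2a, Nes, Pax6, Slc1a3, Sox2, Vim, Esrrb, Flt1, Nefm and Pdgfra, which were higher, and Grin2b and Slc17a6, which were lower. Calls lost under some setting were those of Macrod2, Pde4d and Tcf4. Dpp6, not called in the main fit, was called higher with only the arrays compared (0.53, adjusted p = 0.00324). It was also called higher with array weights (0.52, adjusted p = 0.00909) and with the replicate number as a block (0.53, adjusted p = 0.00932). What share these markers had in the changes of the long genes was not tested.

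After ICRF-193 at TN day 5, 31 of the 42 genes fell and 0 rose, where 6.37% of all genes fell and 2.51% rose. Under quantile normalization 31 fell and 2, Foxp1 and Zbtb20, rose (by 0.59 and 0.73, adjusted p = 0.0321 and 0.0235), with 5.52% of all genes lower and 4.81% higher. The median change was -1.09 against 0.02 over all genes, and 24 of the 42 changed by -1 or further. In 34 of them both ICRF-193 arrays lay below both DMSO arrays, against 23.4% of all genes. With only the arrays of this comparison in the fit Ank2, Dlg2, Magi1, Wwox, Btbd9, Lingo2 and Lrp1b were not called. The calls of Magi1 and Lingo2 were also lost with array weights and without DMSO replicate 2 or ICRF-193 replicate 1, and that of Lrp1b without DMSO replicate 2 (adjusted p up to 0.29 over these fits). Those that fell were 7 of 7 scaffold and junction genes, 3 of 5 signalling genes and 6 of 10 transcription, chromatin and RNA genes. They also included 2 of 4 genome-maintenance and housekeeping genes, 11 of 14 membrane and secreted genes and both glycosyltransferases. Top2b measured 10.58 and 10.71 with ICRF-193 against 10.86 and 10.81 with DMSO and was not called (-0.19 ± 0.24, adjusted p = 0.678). Top2a measured 5.69 and 5.46 with ICRF-193 against 7.6 and 8.45 with DMSO and fell (-2.45 ± 0.21, adjusted p = 6.13e-08). Of 9 neural progenitor markers 6 fell, with summed levels of 58.7 to 58.8 with ICRF-193 against 71.1 to 77.6 with DMSO, and 6 of 7 cell cycle markers fell (44.1 to 46.3 with ICRF-193 against 50.9 to 55.3 with DMSO). Among 12 pan-neuronal markers 2 rose and 3 fell (127.5 to 127.9 with ICRF-193 against 128.9 to 129.6 with DMSO). Markers that fell by 1 or more were Aldoc, Bub1, Mki67, Top2a, Dcn, Fabp7, Gli3, Nes, Slc1a3, Sox2, Grin2b, Slc17a6 and Syt1. Their part in the result was not tested.

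In cortical neurons 35 of the 42 genes fell after ICRF-193 and 0 rose, where 13.7% of all genes fell and 9.72% rose. After centring on array medians 33 fell and 0 rose, and the split over all genes turned to 9.79% lower and 19.7% higher, with 9.98% and 11.6% under quantile normalization. Centring moved the median of all genes to 0.14 and that of the 42 to -1.08. The median change was -1.18 against 0.04 over all genes. In 36 of the 42 genes all 3 ICRF-193 arrays lay below all 3 DMSO arrays, against 25.9% of all genes. Of the roles, 7 of 7 scaffold and junction genes, 3 of 5 signalling genes and 8 of 10 transcription, chromatin and RNA genes fell. So did 2 of 4 genome-maintenance and housekeeping genes, 13 of 14 membrane and secreted genes and both glycosyltransferases. Top2b measured 10.94, 11.05 and 10.95 with ICRF-193 against 10.92, 10.77 and 10.88 with DMSO, a small difference that was not called (0.12 ± 0.20, adjusted p = 0.69). The cultures held signal of other cell types that moved with treatment. Of 6 astrocyte markers 5 fell (summed level 37.9 to 38.2 with ICRF-193 against 46.1 to 47.6 with DMSO) and of 5 oligodendrocyte lineage markers 4 fell (29.8 to 30.1 against 38.7 to 39.6 in the same groups). All 7 microglia markers rose (51.7 to 52.5 with ICRF-193 against 46.4 to 46.9 with DMSO), and all 7 cell cycle markers and 5 of 9 neural progenitor markers fell. Of the pan-neuronal markers 2 of 12 rose and 4 fell (126.5 to 127.1 with ICRF-193 against 129.7 to 130.3 with DMSO). Markers that passed the test with a change of 1 or more were C1qa, which was higher, and Aldh1l1, Aldoc, Aqp4, Gfap, Slc1a2, Aurkb, Bub1, Cdk1, Mki67, Top2a, Fabp7, Nes, Slc1a3, Grin2b, Syt1, Olig1, Olig2 and Pdgfra, which were lower. Whether the changes of the long genes came with those of glial RNA was not tested.

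**Figure D1:**
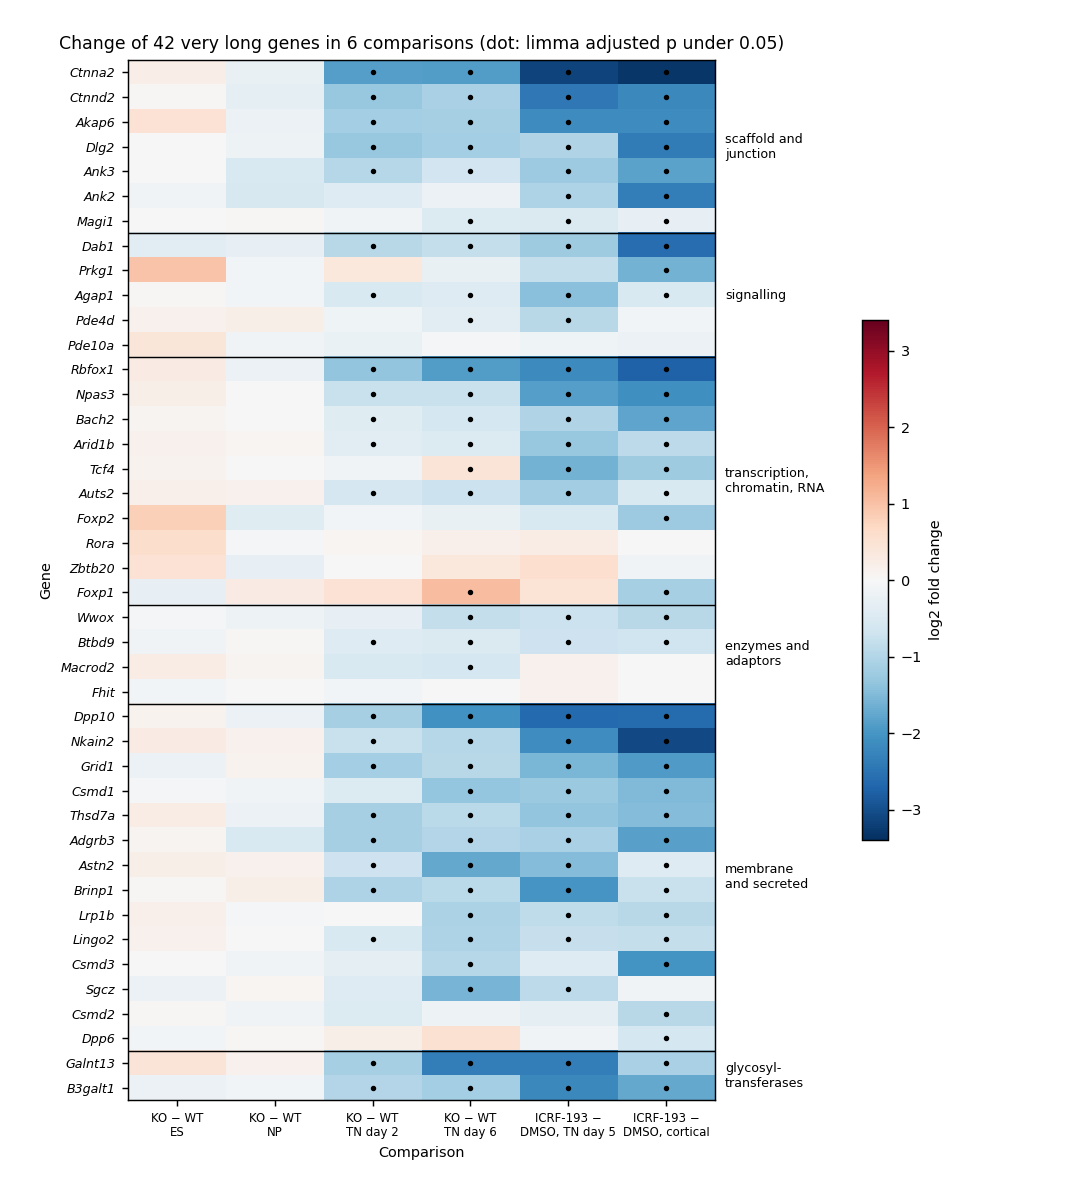
Each cell gives the log2 fold change (colour scale from -3.4 to 3.4) of one of 42 genes, in rows grouped by role, in one of 6 comparisons, in columns; a dot marks a limma adjusted p under 0.05. The columns of ES and NP cells hold no dot, while 23 genes are blue with a dot in all 4 columns of TN and cortical cells.

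Across the 4 comparisons of TN and cortical cells 23 of the 42 genes fell in all 4 (54.8%), as did 124 of all 19938 genes (0.622%). Another 4 genes fell in 3 comparisons (Csmd1, Lrp1b, Magi1 and Wwox), 5 in 2 (Ank2, Csmd3, Pde4d, Sgcz and Tcf4), 6 in 1 (Csmd2, Dpp6, Foxp1, Foxp2, Macrod2 and Prkg1) and 4 in 0 (Fhit, Pde10a, Rora and Zbtb20). These counts rest on the brightest probe set of each gene. On the mean of all probe sets Macrod2 was called lower in all 4, with -1.48 at TN day 5 and -2.32 in cortical neurons. On that mean Csmd3 was also called at TN day 2 and at TN day 5 (-0.57, adjusted p = 0.00386). Pde4d then lost its call at TN day 6 and Dpp6 that in cortical neurons. The 4 comparisons share no array. For each of the 122 calls of these genes every array of one group lay on one side of every array of the other. The 23 genes that fell throughout were Ank3, Dlg2, Akap6, Ctnna2, Ctnnd2, Agap1, Dab1, Arid1b, Auts2, Bach2, Npas3, Rbfox1, Btbd9, Adgrb3, Astn2, Brinp1, Dpp10, Grid1, Lingo2, Nkain2, Thsd7a, B3galt1 and Galnt13, and they span every role. In the following paragraphs levels are the log2 values of single arrays, and changes are log2 fold changes ± SE of the model.

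Among scaffold and junction genes Ctnna2 fell furthest. Its product links cadherin complexes of neurons to actin. It measured 8.96 and 8.44 in knockout cells against 10.58 and 10.56 in wild-type cells at TN day 2 (-1.87 ± 0.15, adjusted p = 1.3e-07). On TN day 6 it measured 9.04, 9.13 and 8.75 in knockout cells against 10.89, 10.90 and 10.82 in wild-type cells (-1.9 ± 0.12, adjusted p = 1.04e-09). With ICRF-193 at TN day 5 it was at 7.23 and 7.66, against 10.56 and 10.63 with DMSO (-3.15 ± 0.15, adjusted p = 5.34e-12). The groups were far apart each time, and the TN day 5 change was an 8.86-fold lower level. Cortical neurons held 6.9, 6.81 and 7.05 with ICRF-193 against 10.23, 10.28 and 10.21 with DMSO (-3.32 ± 0.12, adjusted p = 2.33e-14), a 9.98-fold lower level and the largest change of the 42 genes there. Ctnnd2, the delta-catenin of neuronal junctions, measured 8.49 and 8.12 in knockout cells against 9.55 and 9.64 in wild-type cells at TN day 2 (-1.28 ± 0.15, adjusted p = 1.33e-05). Its levels at TN day 5 were 8.07 and 8.02 with ICRF-193 against 10.50 and 10.46 with DMSO (-2.44 ± 0.15, adjusted p = 3.38e-10), and in cortical neurons 8.3, 8.29 and 8.4 with ICRF-193 against 10.55, 10.52 and 10.45 with DMSO (-2.18 ± 0.12, adjusted p = 1.65e-11). The treated arrays sat close together and well below the controls, while at TN day 6 it measured 9.17, 9.16 and 8.95 in knockout cells against 10.10, 10.26 and 10.18 in wild-type cells (-1.09 ± 0.12, adjusted p = 2.57e-06).

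Akap6, which anchors protein kinase A, measured 8.93 and 8.48 in knockout cells against 9.85 and 9.89 in wild-type cells at TN day 2 (-1.16 ± 0.16, adjusted p = 8.52e-05). It was at 8.85, 8.73 and 8.55 in knockout cells against 9.89, 9.86 and 9.78 in wild-type cells at TN day 6 (-1.13 ± 0.13, adjusted p = 3.92e-06). ICRF-193 gave 7.21 and 7.42 at TN day 5, against 9.31 and 9.59 with DMSO (-2.14 ± 0.16, adjusted p = 7.72e-09), and 7.04, 7.18 and 7.16 in cortical neurons, against 9.37, 9.26 and 9.18 with DMSO (-2.14 ± 0.13, adjusted p = 7.36e-11). No array of a lower group reached the other group. Dlg2, a scaffold of the postsynaptic density, measured 6.92 and 6.19 in knockout cells against 7.89 and 7.82 in wild-type cells at TN day 2 (-1.3 ± 0.18, adjusted p = 6.16e-05) and 7.65, 7.57 and 7.53 against 8.67, 8.74 and 8.79 in the same genotypes at TN day 6 (-1.15 ± 0.14, adjusted p = 9.77e-06). With ICRF-193 on TN day 5 Dlg2 was at 6.94 and 7.5, against 8.1 and 8.37 with DMSO (-1.02 ± 0.18, adjusted p = 0.000635). In cortical neurons it was at 8.14, 8.24 and 8.23 with ICRF-193 against 10.72, 10.53 and 10.52 with DMSO (-2.38 ± 0.14, adjusted p = 4.73e-11), a change further below 0 than at TN day 5 (difference -1.37 ± 0.23, adjusted p = 0.000587). Among the ankyrins, which tie membrane proteins to the spectrin cytoskeleton, Ank3 fell in all 4 comparisons and Ank2 in both ICRF-193 comparisons alone. Ank3 measured 9.61, 9.69 and 9.66 in knockout cells against 10.30, 10.30 and 10.33 in wild-type cells at TN day 6 (-0.66 ± 0.14, adjusted p = 0.00296) and 8.24, 8.39 and 8.27 with ICRF-193 against 10.30, 10.07 and 9.96 with DMSO in cortical neurons (-1.81 ± 0.14, adjusted p = 3.16e-09). Its levels at TN day 2 were 9.53 and 9.0 in knockout cells against 10.20 and 10.28 in wild-type cells (-0.98 ± 0.17, adjusted p = 0.000769), and at TN day 5 8.54 and 9.13 with ICRF-193 against 9.9 and 10.25 with DMSO (-1.24 ± 0.17, adjusted p = 4.95e-05). The Ank3 groups were apart each time by less than those of the catenins. Ank2 measured 8.16, 8.33 and 8.33 with ICRF-193 against 10.79, 10.60 and 10.49 with DMSO in cortical neurons (-2.35 ± 0.13, adjusted p = 9.98e-12). At TN day 6 Ank2 did not pass the test, with 9.64, 9.69 and 9.77 in knockout cells against 9.9, 9.91 and 9.94 in wild-type cells (-0.21 ± 0.13, adjusted p = 0.409). Magi1, a junction scaffold, had smaller changes at TN day 6 (-0.47 ± 0.10, adjusted p = 0.0019), with ICRF-193 at TN day 5 (-0.5 ± 0.12, adjusted p = 0.00951) and in cortical neurons (-0.29 ± 0.10, adjusted p = 0.0349), and besides the losses at TN day 5 given above the cortical call was lost under median centring, under quantile normalization and without any one of the 6 cortical arrays (adjusted p up to 0.413).

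The signalling genes were divided. Dab1, the adaptor through which neurons receive the reelin signal, measured 9.23, 9.21 and 9.08 in knockout cells against 10.01, 9.95 and 10.02 in wild-type cells at TN day 6 (-0.82 ± 0.12, adjusted p = 5.03e-05). In cortical neurons it was at 7.99, 7.91 and 8.03 with ICRF-193 against 10.59, 10.54 and 10.53 with DMSO (-2.58 ± 0.12, adjusted p = 4.71e-13). On TN day 2 it measured 8.47 and 8.2 in knockout cells against 9.58 and 8.98 in wild-type cells (-0.94 ± 0.14, adjusted p = 0.000199), and at TN day 5 8.27 and 8.34 with ICRF-193 against 9.34 and 9.69 with DMSO (-1.21 ± 0.14, adjusted p = 5.37e-06). The cortical change was the furthest below 0 of the 4 and differed from that at TN day 5 (-1.37 ± 0.19, adjusted p = 5.79e-05). Agap1, which acts on Arf GTPases, measured 9.71, 9.77 and 9.65 in knockout cells against 10.09, 10.15 and 10.17 in wild-type cells at TN day 6 (-0.43 ± 0.08, adjusted p = 0.00119) and 8.76 and 8.81 with ICRF-193 against 10.16 and 10.24 with DMSO at TN day 5 (-1.42 ± 0.10, adjusted p = 3.06e-09). Its TN day 2 levels were 9.07 and 8.94 in knockout cells against 9.66 and 9.39 in wild-type cells (-0.52 ± 0.10, adjusted p = 0.00187), and that call was lost without wild-type replicate 1, without knockout replicate 2 and with only the arrays compared (adjusted p up to 0.114). Its cortical levels were 8.52, 8.55 and 8.73 with ICRF-193 against 9.11, 9.14 and 9.05 with DMSO (-0.51 ± 0.08, adjusted p = 0.000109), a change nearer 0 than at TN day 5 (difference 0.91 ± 0.13, adjusted p = 0.000113). Pde4d, a cAMP phosphodiesterase, fell at TN day 5 (-0.93 ± 0.13, adjusted p = 5.36e-05) and narrowly at TN day 6 (-0.35 ± 0.11, adjusted p = 0.0362), a call lost without any one of the 6 arrays of that day (adjusted p up to 0.15). Prkg1 fell in cortical neurons alone, where it measured 5.53, 5.31 and 5.41 with ICRF-193 against 7.15, 6.99 and 6.96 with DMSO (-1.62 ± 0.29, adjusted p = 0.000281). Pde10a was called in none of the 6 comparisons. With only the cortical arrays in the fit it was called there (-0.2, adjusted p = 0.0258). It measured 8.53, 8.53 and 8.58 in knockout cells against 8.55, 8.59 and 8.66 in wild-type cells at TN day 6. In cortical neurons it was at 8.75, 8.8 and 8.82 with ICRF-193 against 9.05, 8.97 and 8.95 with DMSO (-0.2 ± 0.26, adjusted p = 0.614). No ICRF-193 array reached a DMSO array there. The SE of the main fit rests on a spread shared by all groups. The SD of Pde10a was 1.39 in knockout ES cells, and 0.04 with ICRF-193 and 0.06 with DMSO in cortical neurons.

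Among transcription, chromatin and RNA genes Rbfox1, an RNA-binding regulator of splicing, fell furthest. It measured 7.36 and 7.02 in knockout cells against 8.55 and 8.51 in wild-type cells at TN day 2 (-1.34 ± 0.18, adjusted p = 5.32e-05). On TN day 6 it measured 7.57, 7.65 and 7.51 in knockout cells against 9.42, 9.49 and 9.55 in wild-type cells (-1.91 ± 0.15, adjusted p = 8.46e-09), a 3.76-fold lower level. With ICRF-193 it was at 7.07 and 6.88 at TN day 5, against 8.82 and 9.48 with DMSO (-2.17 ± 0.18, adjusted p = 2.73e-08). Its cortical levels were 6.85, 6.91 and 6.97 with ICRF-193 against 9.65, 9.62 and 9.7 with DMSO (-2.75 ± 0.15, adjusted p = 6.31e-12). Treated and knockout TN and cortical arrays all read between 6.85 and 7.65, although their controls ran up to 9.7. Npas3, a basic helix-loop-helix transcription factor, measured 8.03, 8.09 and 7.66 in knockout cells against 8.71, 8.71 and 8.66 in wild-type cells at TN day 6 (-0.77 ± 0.13, adjusted p = 0.00039) and 6.37, 6.49 and 6.42 with ICRF-193 against 8.62, 8.4 and 8.51 with DMSO in cortical neurons (-2.08 ± 0.13, adjusted p = 1.15e-10). At TN day 2 Npas3 was at 7.99 and 7.58 in knockout cells against 8.78 and 8.29 in wild-type cells (-0.75 ± 0.16, adjusted p = 0.00428), and at TN day 5 at 6.88 and 6.91 with ICRF-193 against 8.55 and 8.99 with DMSO (-1.87 ± 0.16, adjusted p = 5.6e-08). The TN day 2 groups stood closest. Bach2, a leucine zipper repressor, measured 8.81, 8.86 and 8.69 in knockout cells against 9.3, 9.47 and 9.44 in wild-type cells at TN day 6 (-0.61 ± 0.09, adjusted p = 0.000105) and 6.65, 6.94 and 6.84 with ICRF-193 against 8.62, 8.67 and 8.54 with DMSO in cortical neurons (-1.8 ± 0.09, adjusted p = 4.33e-12). It was at 8.73 and 8.73 in knockout cells against 9.1 and 9.21 in wild-type cells at TN day 2 (-0.42 ± 0.12, adjusted p = 0.0204) and at 8.2 and 8.23 with ICRF-193 against 9.22 and 9.23 with DMSO at TN day 5 (-1.01 ± 0.12, adjusted p = 3.13e-06). The Bach2 call at TN day 2 was lost without any one of its 4 arrays (adjusted p up to 0.145).

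Arid1b, a subunit of the BAF chromatin remodelling complex, and Auts2, a partner of a Polycomb complex, had cortical changes nearer 0 than those at TN day 5. For Auts2 the difference passed the test (0.65 ± 0.16, adjusted p = 0.0144), and for Arid1b it did not (0.41 ± 0.14, adjusted p = 0.122). Arid1b measured 9.5, 9.39 and 9.28 in knockout cells against 9.79, 9.91 and 9.87 in wild-type cells at TN day 6 (-0.47 ± 0.09, adjusted p = 0.00115) and 8.53 and 8.4 with ICRF-193 against 9.83 and 9.69 with DMSO at TN day 5 (-1.3 ± 0.11, adjusted p = 3.94e-08). Auts2 measured 9.46, 9.38 and 9.31 in knockout cells against 10.13, 10.12 and 10.09 in wild-type cells at TN day 6 (-0.73 ± 0.10, adjusted p = 2.17e-05) and 9.03 and 9.06 with ICRF-193 against 10.39 and 10.08 with DMSO at TN day 5 (-1.18 ± 0.12, adjusted p = 5.33e-07). The groups of both genes were apart at both stages. At TN day 2 Arid1b was at 9.42 and 9.31 in knockout cells against 9.78 and 9.71 in wild-type cells (-0.38 ± 0.11, adjusted p = 0.028), and Auts2 at 9.33 and 9.3 in knockout cells against 9.84 and 9.9 in wild-type cells (-0.56 ± 0.12, adjusted p = 0.00394). In cortical neurons Arid1b was at 8.22, 8.23 and 8.2 with ICRF-193 against 9.15, 9.12 and 9.04 with DMSO (-0.89 ± 0.09, adjusted p = 1.95e-07), and Auts2 at 7.79, 7.68 and 7.64 with ICRF-193 against 8.28, 8.29 and 8.14 with DMSO (-0.53 ± 0.10, adjusted p = 0.000386). The Arid1b call at TN day 2 was lost without any one of 3 of its 4 arrays and under quantile normalization (adjusted p up to 0.251). The forkhead and E-protein genes had changes in both directions. Foxp1, a forkhead transcription factor, measured 8.76, 8.61 and 8.82 in knockout cells against 7.75, 7.82 and 7.5 in wild-type cells at TN day 6 and rose there (1.04 ± 0.13, adjusted p = 1.23e-05). In cortical neurons it measured 7.5, 7.32 and 7.27 with ICRF-193 against 8.63, 8.41 and 8.47 with DMSO and fell (-1.14 ± 0.13, adjusted p = 1.44e-06). At TN day 5 its levels were 8.78 and 8.99 with ICRF-193 against 8.38 and 8.47 with DMSO (0.46 ± 0.16, adjusted p = 0.0878), and the difference between the ICRF-193 changes passed the test (-1.6 ± 0.21, adjusted p = 4.01e-05). Tcf4, a helix-loop-helix E protein, measured 9.2, 9.31 and 8.92 in knockout cells against 8.6, 8.78 and 8.7 in wild-type cells at TN day 6 (0.45 ± 0.13, adjusted p = 0.0294). This narrow rise was lost under median centring and in 4 of 6 fits that left out 1 array of the day, where the adjusted p reached 0.17. With ICRF-193 Tcf4 fell, to 7.32 and 7.47 at TN day 5 against 8.9 and 9.09 with DMSO (-1.6 ± 0.16, adjusted p = 4.32e-07) and to 9.95, 10.05 and 10 in cortical neurons against 11.19, 11.17 and 11.28 with DMSO (-1.21 ± 0.13, adjusted p = 4.91e-07). Foxp2 fell in cortical neurons alone (-1.23 ± 0.19, adjusted p = 4.06e-05). Rora, a nuclear receptor, measured 6.82, 6.79 and 6.81 with ICRF-193 against 6.95, 6.76 and 6.74 with DMSO in cortical neurons (-0.01 ± 0.15, adjusted p = 0.978) and 6.99, 7.14 and 7.19 in knockout cells against 6.87, 6.99 and 6.98 in wild-type cells at TN day 6 (0.16 ± 0.15, adjusted p = 0.643). Zbtb20, a zinc finger repressor, measured 7.29, 7.67 and 7.95 in knockout cells against 7.33, 7.33 and 7.18 in wild-type cells at TN day 6 (0.35 ± 0.18, adjusted p = 0.271) and 8.22, 8.35 and 8.34 with ICRF-193 against 8.57, 8.33 and 8.34 with DMSO in cortical neurons (-0.11 ± 0.18, adjusted p = 0.682). Neither gene was called in any of the 6 comparisons. The spread shared by all groups took in knockout ES cells, where the SD was 0.62 for Rora and 0.47 for Zbtb20.

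**Figure D2:**
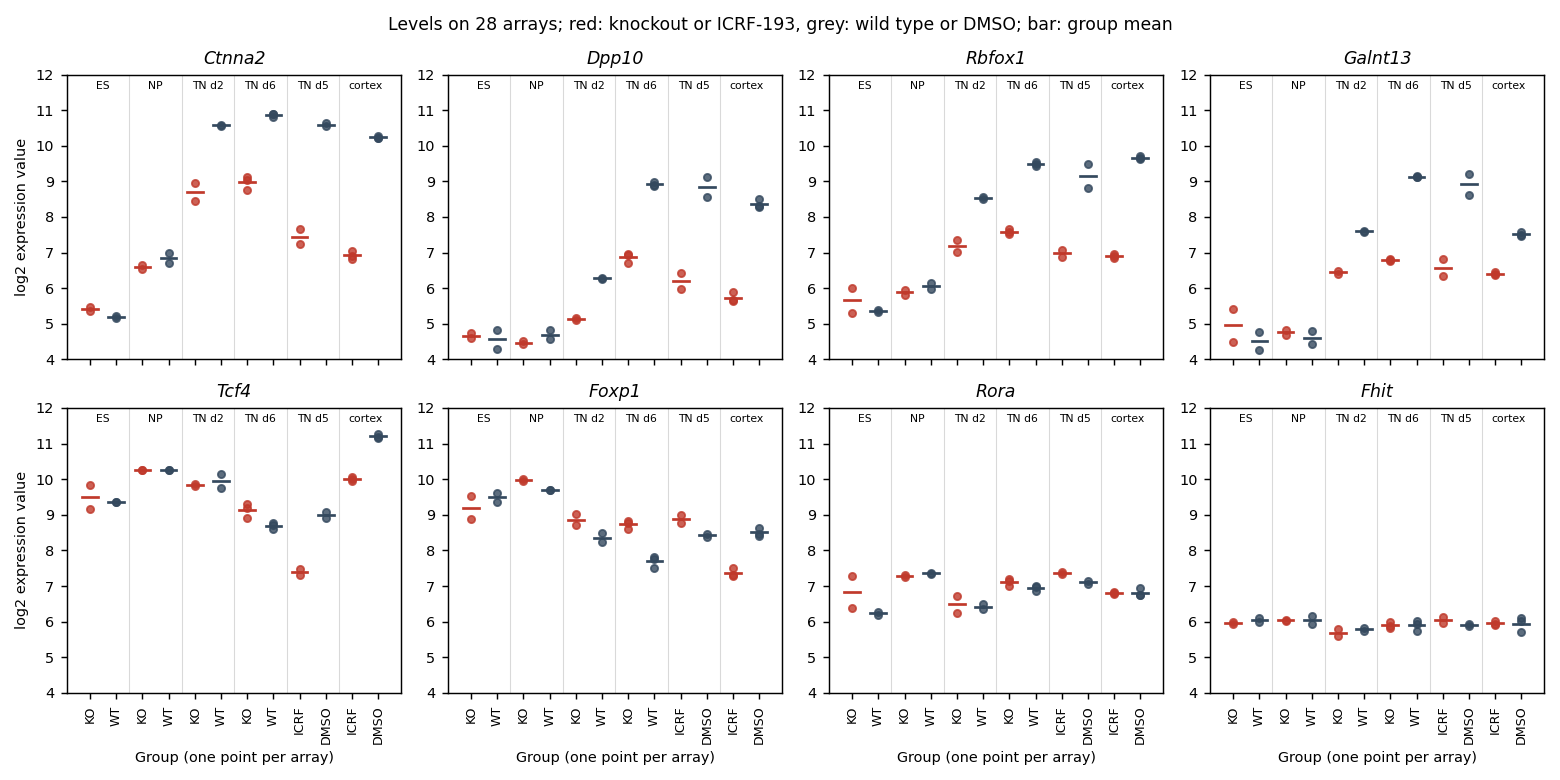
Each panel plots the log2 expression value (vertical axis, from 4 to 12) of one gene on all 28 arrays, one point per array in 12 groups, with bars at group means. In Ctnna2, Dpp10, Rbfox1 and Galnt13 the red points of knockout or ICRF-193 arrays lie below the grey points of their controls in TN and cortical cells, Foxp1 and Tcf4 lie above them at TN day 6, and the genotypes and treatments of Fhit overlap in most stages.

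Of the genome-maintenance and housekeeping genes, Fhit was called in none of the 6 comparisons. Fhit encodes a hydrolase of dinucleoside polyphosphates and lies at a common fragile site. It measured 5.82, 6.0 and 5.87 in knockout cells against 5.94, 5.75 and 6.01 in wild-type cells at TN day 6 (-0.01 ± 0.10, adjusted p = 0.989) and 6.03, 5.9 and 5.93 with ICRF-193 against 5.7, 6.02 and 6.11 with DMSO in cortical neurons (0.01 ± 0.10, adjusted p = 0.953). The groups overlapped in both, and the 28 arrays lay between 5.6 and 6.16. All of them lay below the cut of 6.7 of the filter on low values. Whether Fhit was expressed above background cannot be told from the values. Wwox, an oxidoreductase of another fragile site, fell at TN day 6 (-0.8 ± 0.10, adjusted p = 1.23e-05), with ICRF-193 at TN day 5 (-0.74 ± 0.12, adjusted p = 0.000458) and in cortical neurons (-0.93 ± 0.10, adjusted p = 5.92e-07), with 7.08, 7.03 and 7.06 in knockout cells against 7.82, 7.97 and 7.76 in wild-type cells at TN day 6. Btbd9, a BTB domain protein, fell in all 4, by modest amounts: it measured 9.5, 9.56 and 9.51 in knockout cells against 10.01, 9.99 and 10.03 in wild-type cells at TN day 6 (-0.49 ± 0.09, adjusted p = 0.000916) and 9.34, 9.22 and 9.5 with ICRF-193 against 10.05, 10.10 and 9.94 with DMSO in cortical neurons (-0.68 ± 0.09, adjusted p = 1.13e-05). Its changes at TN day 2 (-0.44 ± 0.11, adjusted p = 0.0127) and at TN day 5 (-0.7 ± 0.11, adjusted p = 0.000266) were not called with only the arrays compared. On TN day 2 it was at 9.1 and 9.03 in knockout cells against 9.55 and 9.48 in wild-type cells, and at TN day 5 at 9.1 and 9.52 with ICRF-193 against 9.98 and 10.05 with DMSO.

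Macrod2, which removes ADP-ribose from proteins, gave different answers on its 6 probe sets. The one of highest mean measured 8.6, 8.82 and 8.83 with ICRF-193 against 8.73, 8.64 and 8.88 with DMSO in cortical neurons (0.00 ± 0.19, adjusted p = 0.992), and the groups overlapped. Its narrow fall at TN day 6 (-0.6 ± 0.19, adjusted p = 0.043) was lost without any one of the 6 arrays of that day and under quantile normalization (adjusted p up to 0.195). Probe set 10476594 of the same gene measured 4.05, 3.79 and 3.84 with ICRF-193 against 8.14, 8.1 and 8.19 with DMSO (-4.25 ± 0.11, adjusted p = 5.58e-16). On TN day 6 it measured 4.26, 4.46 and 4.3 in knockout cells against 7.17, 7.33 and 6.89 in wild-type cells (-2.79 ± 0.11, adjusted p = 2.65e-12), and its groups were far apart each time. In all, 4 of the 6 Macrod2 probe sets fell in cortical neurons by between -2.59 and -4.25 and at TN day 6 by between -1.69 and -2.79, changes of a size with the largest of the 42 genes. These 4 sets were also called lower at TN day 2, by between -0.87 and -1.72, and with ICRF-193 at TN day 5, by between -1.59 and -3.29. The remaining set, 10476582, changed by -0.62 in cortical neurons and 0.07 at TN day 6. Every probe set fitted separately was an alternative chosen after the data were seen. Lingo2, a leucine-rich repeat membrane protein, fell further on its other probe set (-2.53 ± 0.14, adjusted p = 7.42e-12 in cortical neurons) than on the one used (-0.81 ± 0.13, adjusted p = 0.000128). That other set, 10512044, was also called lower in knockout cells at TN day 2 (-1.08 ± 0.17, adjusted p = 0.000235) and TN day 6 (-1.97 ± 0.14, adjusted p = 2.25e-09). With ICRF-193 at TN day 5 it was called lower too (-1.96 ± 0.17, adjusted p = 4.32e-08). Nkain2, which binds the sodium pump, fell less in cortical neurons on its other one (-0.46 ± 0.12, adjusted p = 0.00674). That probe set, 10368596, was called neither in knockout cells of TN day 2 (-0.29 ± 0.14, adjusted p = 0.215) or day 6 (0.1 ± 0.12, adjusted p = 0.738) nor with ICRF-193 at TN day 5 (0.00 ± 0.14, adjusted p = 0.995), so the fall of Nkain2 in all 4 comparisons rests on 1 probe set. All 7 probe sets of Csmd3, a protein with CUB and sushi domains, fell in cortical neurons, by between -1.31 and -3.17. With ICRF-193 at TN day 5 its probe sets 10428522, 10428517 and 10428515 were called lower (-0.85, -1.02 and -0.86). The remaining sets, among them the one used, were not called there.

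**Figure D3:**
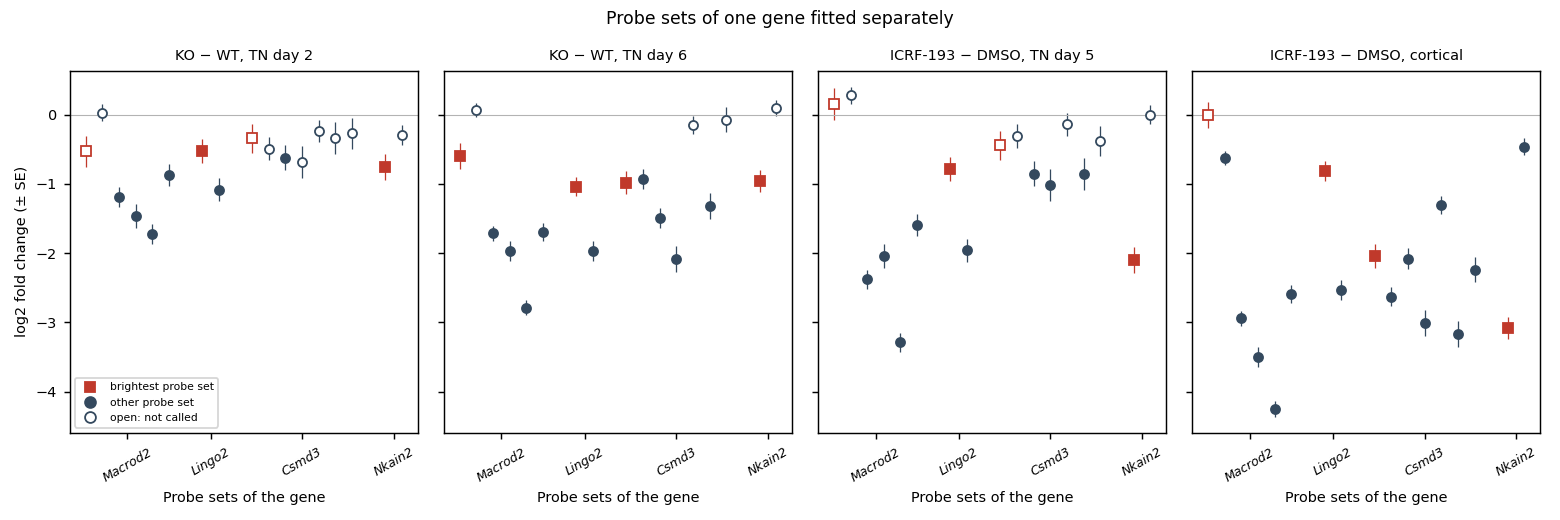
Log2 fold changes ± SE (vertical axis) of each probe set of Macrod2, Lingo2, Csmd3 and Nkain2 in 4 comparisons; squares mark the probe set with the highest mean, filled marks an adjusted p under 0.05. Macrod2 probe sets run between 0.00 and -4.25 in cortical neurons, while the 7 Csmd3 probe sets there all lie at -1.31 or below.

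Of the 14 membrane and secreted genes, Dpp10, an auxiliary subunit of A-type potassium channels, had the largest changes at TN day 6 and with ICRF-193 at TN day 5. On TN day 2 it measured 5.12 and 5.16 in knockout cells against 6.29 and 6.27 in wild-type cells (-1.14 ± 0.18, adjusted p = 0.000215). On TN day 6 it measured 6.72, 6.97 and 6.93 in knockout cells against 8.9, 8.98 and 8.88 in wild-type cells (-2.05 ± 0.14, adjusted p = 2.22e-09), a 4.14-fold lower level. It was at 5.98 and 6.42 with ICRF-193 against 8.56 and 9.12 with DMSO at TN day 5 (-2.64 ± 0.18, adjusted p = 9.64e-10) and at 5.68, 5.88 and 5.65 with ICRF-193 against 8.51, 8.3 and 8.27 with DMSO in cortical neurons (-2.62 ± 0.14, adjusted p = 8.77e-12). The lower groups never reached the controls, although knockout levels were higher at TN day 6 than at TN day 2. Its relative Dpp6, another subunit of these channels, did not follow: it measured 7.86, 7.87 and 8.05 in knockout cells against 7.41, 7.45 and 7.33 in wild-type cells at TN day 6 (0.53 ± 0.19, adjusted p = 0.0838). With only the arrays compared, with array weights and with a replicate block Dpp6 was called higher there. The cortical call of Dpp6 (-0.59 ± 0.19, adjusted p = 0.0285) was lost under median centring, under quantile normalization, on the mean of all probe sets and without any one of the 6 cortical arrays (adjusted p up to 0.168). Its other probe set, 10520351, was not called in cortical neurons (0.06 ± 0.13, adjusted p = 0.759). That set was narrowly lower in knockout cells at TN day 2 (-0.49 ± 0.16, adjusted p = 0.0498). Nkain2 measured 6.18 and 6.33 with ICRF-193 against 8.26 and 8.46 with DMSO at TN day 5 (-2.1 ± 0.19, adjusted p = 1.09e-07) and 6.91, 6.85 and 7.08 with ICRF-193 against 10, 10.04 and 10.03 with DMSO in cortical neurons (-3.08 ± 0.16, adjusted p = 2.78e-12). Its TN day 6 levels were 6.48, 6.34 and 6.8 in knockout cells against 7.52, 7.44 and 7.53 in wild-type cells (-0.96 ± 0.16, adjusted p = 0.000205), and at TN day 2 5.69 and 6.09 in knockout cells against 6.76 and 6.52 in wild-type cells (-0.75 ± 0.19, adjusted p = 0.0129). The knockout lowered Nkain2 less than ICRF-193 did at TN day 5 (difference -1.15 ± 0.25, adjusted p = 0.00574).

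Grid1, a delta glutamate receptor, measured 6.95 and 6.91 in knockout cells against 8.17 and 7.99 in wild-type cells at TN day 2 (-1.15 ± 0.13, adjusted p = 7.78e-06) and 6.9, 6.59 and 6.73 with ICRF-193 against 8.67, 8.6 and 8.7 with DMSO in cortical neurons (-1.92 ± 0.10, adjusted p = 8.65e-12). Thsd7a, a membrane protein with thrombospondin repeats, measured 9.47 and 9.14 in knockout cells against 10.44 and 10.46 in wild-type cells at TN day 2 (-1.14 ± 0.21, adjusted p = 0.00127) and 7.69, 8.01 and 7.82 with ICRF-193 against 9.46, 9.28 and 9.19 with DMSO in cortical neurons (-1.47 ± 0.17, adjusted p = 1.79e-06). At TN day 6 Grid1 was at 7.62, 7.45 and 7.87 in knockout cells against 8.52, 8.72 and 8.49 in wild-type cells (-0.93 ± 0.10, adjusted p = 2.17e-06), and Thsd7a at 9.68, 9.8 and 9.76 in knockout cells against 10.68, 10.65 and 10.66 in wild-type cells (-0.91 ± 0.17, adjusted p = 0.00105). At TN day 5 Grid1 was at 7.16 and 7.37 with ICRF-193 against 8.82 and 8.8 with DMSO (-1.55 ± 0.13, adjusted p = 2.73e-08), and Thsd7a at 8.76 and 9.32 with ICRF-193 against 10.33 and 10.45 with DMSO (-1.35 ± 0.21, adjusted p = 0.000234). Neither pair of groups overlapped in any of the 4 comparisons. Adgrb3, an adhesion G protein-coupled receptor, measured 8.61, 8.7 and 8.68 in knockout cells against 9.64, 9.69 and 9.63 in wild-type cells at TN day 6 (-0.99 ± 0.12, adjusted p = 6.24e-06) and 7.78, 7.96 and 8.11 with ICRF-193 against 9.86, 9.74 and 9.83 with DMSO in cortical neurons (-1.85 ± 0.12, adjusted p = 1.48e-10). It was at 7.86 and 7.48 in knockout cells against 8.81 and 8.77 in wild-type cells at TN day 2 (-1.12 ± 0.15, adjusted p = 4.22e-05) and at 8.3 and 8.69 with ICRF-193 against 9.5 and 9.72 with DMSO at TN day 5 (-1.11 ± 0.15, adjusted p = 2.38e-05). The cortical change of Adgrb3 lay further below 0 than that at TN day 5 (difference -0.74 ± 0.19, adjusted p = 0.0251). Lingo2 measured 6.16, 6.17 and 6.34 in knockout cells against 7.31, 7.27 and 7.21 in wild-type cells at TN day 6 (-1.04 ± 0.13, adjusted p = 1.47e-05), 6.32 and 6.67 with ICRF-193 against 7.17 and 7.39 with DMSO at TN day 5 (-0.78 ± 0.17, adjusted p = 0.00415), and 6.44, 5.86 and 6.29 with ICRF-193 against 7.02, 7.08 and 6.92 with DMSO in cortical neurons. On the probe set used its TN day 2 call was narrow, with 6.03 and 6.05 in knockout cells against 6.68 and 6.44 in wild-type cells (-0.52 ± 0.17, adjusted p = 0.0437). That call did not hold under quantile normalization, with array weights, with only the arrays compared or without any one of 3 of the 4 arrays (adjusted p up to 0.387). The other Lingo2 probe set was called lower at TN day 2, TN day 6 and TN day 5, as given above.

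Astn2 and Brinp1 fell less with ICRF-193 in cortical neurons than at TN day 5. Astn2, an astrotactin, measured 7.32, 7.33 and 7.22 in knockout cells against 8.98, 9.11 and 9.05 in wild-type cells at TN day 6 (-1.75 ± 0.12, adjusted p = 1.31e-09). It was at 7.04 and 7.26 with ICRF-193 against 8.38 and 8.86 with DMSO at TN day 5 (-1.47 ± 0.14, adjusted p = 3.42e-07) and at 6.65, 6.85 and 6.74 with ICRF-193 against 7.18, 7.11 and 7.24 with DMSO in cortical neurons (-0.43 ± 0.12, adjusted p = 0.0117). The cortical change was nearer 0 (difference 1.04 ± 0.19, adjusted p = 0.00121), and was not called without ICRF-193 replicate 1 (adjusted p = 0.0556). At TN day 2 Astn2 was at 7.0 and 6.88 in knockout cells against 7.68 and 7.61 in wild-type cells (-0.7 ± 0.14, adjusted p = 0.00273). Brinp1, a neuronal protein induced by retinoic acid, measured 7.75 and 7.99 with ICRF-193 against 9.61 and 10.13 with DMSO at TN day 5 (-2.0 ± 0.15, adjusted p = 4e-09) and 8.7, 8.63 and 8.61 with ICRF-193 against 9.39, 9.35 and 9.5 with DMSO in cortical neurons (-0.77 ± 0.12, adjusted p = 6.46e-05, difference 1.24 ± 0.19, adjusted p = 0.000225). Its TN day 6 levels were 8.79, 8.67 and 8.73 in knockout cells against 9.62, 9.65 and 9.65 in wild-type cells (-0.91 ± 0.12, adjusted p = 1.87e-05), and its TN day 2 levels 8.35 and 8.19 in knockout cells against 9.27 and 9.37 in wild-type cells (-1.05 ± 0.15, adjusted p = 8.52e-05). Brinp1 has the shortest span of the 42 genes and its groups did not overlap in any of these comparisons.

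Sgcz, Csmd1 and Lrp1b fell at TN day 6 without a call at TN day 2. Sgcz, a sarcoglycan, measured 5.35, 5.21 and 5.23 in knockout cells against 6.92, 7.01 and 6.63 in wild-type cells at TN day 6 (-1.59 ± 0.13, adjusted p = 1.18e-08). In cortical neurons it was at 5.1, 5.04 and 4.87 with ICRF-193 and 5.13, 5.1 and 5.16 with DMSO (-0.13 ± 0.13, adjusted p = 0.49). Csmd1, a relative of Csmd3, measured 6.0, 6.03 and 6.07 in knockout cells against 7.36, 7.39 and 7.3 in wild-type cells at TN day 6 (-1.32 ± 0.13, adjusted p = 2.19e-07), with groups well apart. Lrp1b, a receptor of the low-density lipoprotein family, measured 4.74, 4.84 and 4.87 in knockout cells against 5.94, 5.97 and 5.74 in wild-type cells at TN day 6 (-1.07 ± 0.15, adjusted p = 2.99e-05). In the wild type these genes rose from TN day 2 to TN day 6 by 1.63, 1.52 and 1.4, and the knockout arrays of TN day 6 stayed within 0.5 of their wild-type means of TN day 2. Csmd3 fell at TN day 6 (-0.98 ± 0.17, adjusted p = 0.00052) and in cortical neurons (-2.04 ± 0.17, adjusted p = 1.35e-08), and Csmd2 in cortical neurons alone (-0.93 ± 0.13, adjusted p = 2.1e-05).

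The glycosyltransferases both fell in all 4 comparisons. Galnt13, which starts O-linked glycans of the mucin type, measured 6.49 and 6.41 in knockout cells against 7.6 and 7.59 in wild-type cells at TN day 2 (-1.14 ± 0.22, adjusted p = 0.00194). On TN day 6 it was at 6.78, 6.82 and 6.77 in knockout cells against 9.15, 9.11 and 9.12 in wild-type cells (-2.34 ± 0.18, adjusted p = 1.13e-08), a 5.05-fold lower level and the largest change of the 42 there. Its levels at TN day 5 were 6.33 and 6.82 with ICRF-193 against 8.63 and 9.21 with DMSO (-2.35 ± 0.22, adjusted p = 2.35e-07). In cortical neurons Galnt13 was at 6.4, 6.46 and 6.37 with ICRF-193 against 7.48, 7.58 and 7.5 with DMSO (-1.11 ± 0.18, adjusted p = 0.000124), a change nearer 0 than at TN day 5 (difference 1.24 ± 0.29, adjusted p = 0.0124). B3galt1, a galactosyltransferase, measured 8.13, 8.22 and 8.03 in knockout cells against 9.25, 9.34 and 9.29 in wild-type cells at TN day 6 (-1.16 ± 0.07, adjusted p = 3.68e-10). It was at 7.19 and 7.3 with ICRF-193 against 9.5 and 9.4 with DMSO at TN day 5 (-2.2 ± 0.09, adjusted p = 6.96e-13) and at 7.32, 7.32 and 7.3 with ICRF-193 against 9.05, 9.08 and 9.04 with DMSO in cortical neurons (-1.74 ± 0.07, adjusted p = 1.07e-13). On TN day 2 it was at 7.59 and 7.7 in knockout cells against 8.58 and 8.71 in wild-type cells (-1.0 ± 0.09, adjusted p = 3.76e-07), and again no group reached the other.

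ICRF-193 was given in both culture types, and 29 of the 42 genes fell in both, 6 in cortical neurons alone and 2 at TN day 5 alone (Pde4d and Sgcz). Over all genes these patterns held for 3.88%, 9.79% and 2.49%. A test of the difference between the changes called 16 of the 42 genes, 8 with a cortical change further below 0 and 8 with one nearer 0. These counts were 10 and 5 without ICRF-193 replicate 1 of TN day 5, 11 and 6 without DMSO replicate 2 of TN day 5, and 6 and 6 without DMSO replicate 1 of TN day 5. Over all genes 2.68% had a lower and 1.69% a higher cortical change, or 2.30% and 2.75% after median centring. Those with the lower cortical change were Ank2, Dlg2, Dab1, Bach2, Foxp1, Adgrb3, Csmd3 and Nkain2, and the others Agap1, Pde4d, Auts2, Astn2, Brinp1, Sgcz, B3galt1 and Galnt13. With DMSO the mean of Sgcz was 5.13 in cortical neurons, near the 5.07 of wild-type ES cells, and 6.27 at TN day 5. Whether that level bore on the cortical change of Sgcz was not tested. The knockout at TN day 6 and ICRF-193 at TN day 5 both lowered 29 of the 42 genes, and in 30 of 42 the ICRF-193 change lay further below 0. Over all genes these shares were 1.56% and 47.9%. The difference of these effects passed the test in 13 genes toward a lower ICRF-193 value and in 1, Sgcz, toward the other side. Over all genes the shares in that test were 5.19% and 1.89%, or 3.70% and 4.19% after median centring, where 11 and 1 of the 42 were called. The largest such difference was that of Tcf4 (-2.05 ± 0.21, adjusted p = 1.98e-06). Days, treatments and possibly genotypes differ between those experiments.

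**Figure D4:**
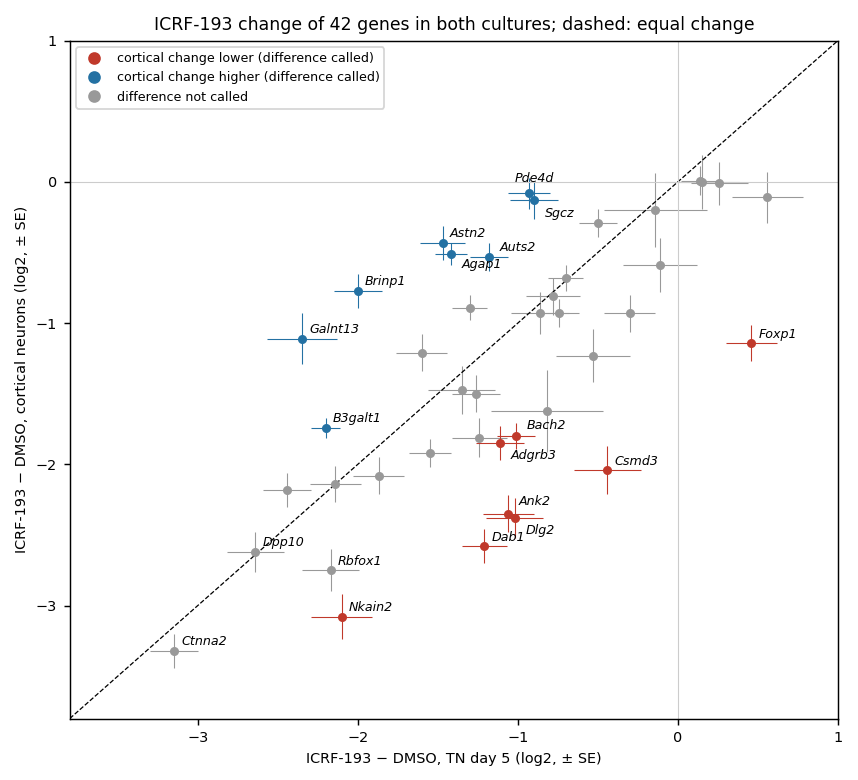
ICRF-193 against DMSO log2 change at TN day 5 (horizontal axis) and in cortical neurons (vertical axis), ± SE, for each of 42 genes, with the line of equal change dashed. Colour marks the 16 genes whose changes differed between the cultures, 8 below the line and 8 above it, and Ctnna2 and Dpp10 lie near the line at about -3.

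Changes of the 42 genes were compared between experiments as a description. Between TN day 6 knockout and TN day 5 ICRF-193 changes Pearson's r was 0.73 across the 42 genes and 0.16 across all 19938 genes, and between TN day 2 knockout and TN day 5 ICRF-193 it was 0.79 and 0.05. Between the ICRF-193 experiments it was 0.67 and 0.54. The cortical ICRF-193 changes were least like those of the TN day 6 knockout (0.44 across the 42 genes and 0.03 across all genes), and against those of the TN day 2 knockout the values were 0.63 and 0.05. Spearman's rho gave 0.68, 0.77, 0.62, 0.49 and 0.58 across the 42 genes, in the same order. Genes that rose more in wild-type cells from ES cells to TN day 6 had changes further below 0 with ICRF-193 at TN day 5 (r = -0.68 across the 42 genes, -0.04 across all genes). With the cortical ICRF-193 change r was -0.57 across the 42 genes and 0.03 across all genes. Genes are not independent replicates, and each such pair shares its probe sets but no array, so no p is given.

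Within the 42 genes the correlation of log10 span with the change (Pearson's r) was -0.32 at TN day 6, and -0.02, 0.06 and -0.12 at TN day 2, at TN day 5 with ICRF-193 and in cortical neurons. Over all 19916 genes with a span r was -0.01 at TN day 6 and -0.02 at TN day 2, and -0.24 and -0.25 at TN day 5 with ICRF-193 and in cortical neurons. Over the whole array the share of genes that fell was higher in longer span classes. On TN day 6 it was 3.51% of genes under 50 kb, 4.04% between 50 and 100 kb, 7.19% between 100 and 300 kb and 34.3% of the 490 other genes over 300 kb, against 73.8% of the 42. The shares that rose were 4.74%, 6.91%, 9.12%, 4.29% and 4.76%, above the shares that fell in each class up to 300 kb. In cortical neurons with ICRF-193 the shares that fell were 11.1%, 12%, 23.1%, 61.0% and 83.3%, and those that rose 9.53%, 11.7%, 10.5%, 4.29% and 0%. The 42 genes were listed with earlier results known, so their higher share than that of other genes over 300 kb is not evidence about the class.

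**Figure D5:**
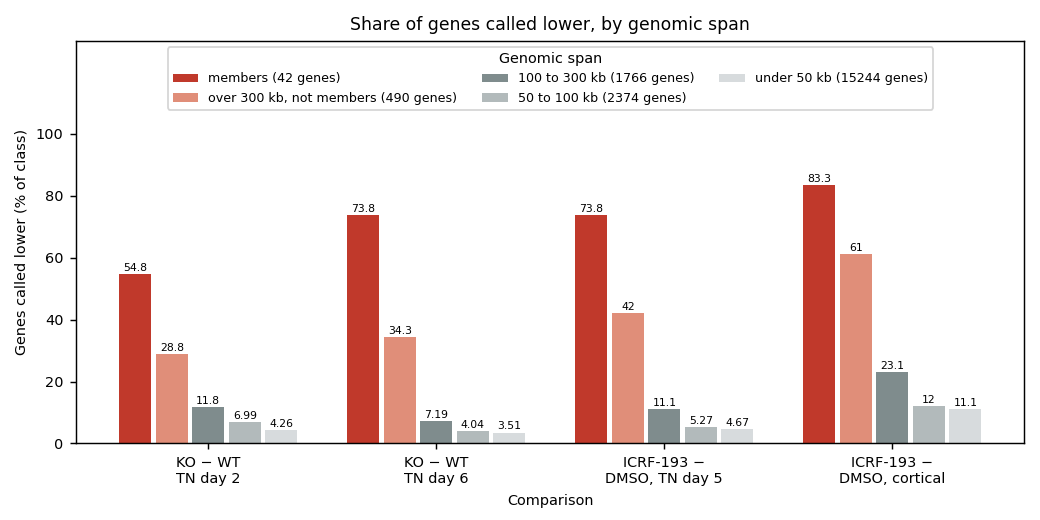
Share of genes called lower (vertical axis, percent of the class) by genomic span in 4 comparisons; each bar is one span class, with the 42 genes described here at the left of each group. The share falls from 73.8% of the 42 genes to 34.3% of other genes over 300 kb and 3.51% of genes under 50 kb at TN day 6, with the same order of classes in the other comparisons.

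Close relatives of the 42 genes were mostly shorter, with a median span of 84.1 kb over the 45 measured of 49 listed paralogs. Because they were listed with earlier results known, their counts are a description. In knockout cells 8 of 45 fell and 6 rose at TN day 2 (median change -0.17), where 5.97% of all genes fell and 5.49% rose. At TN day 6, 6 fell and 8 rose (median 0.03), against 4.8% and 5.38% of all genes. With ICRF-193, 9 fell and 2 rose at TN day 5 (median 0.00), against 6.37% and 2.51% of all genes. In cortical neurons 12 fell and 4 rose (median -0.03), against 13.7% and 9.72% of all genes. Of 21 paralogs over 100 kb, 4, 5, 6 and 9 fell in these comparisons, in the same order, and 3, 2, 1 and 2 rose. Of 24 up to 100 kb, 4, 1, 3 and 3 fell and 3, 6, 1 and 2 rose. Among paralogs with a change of 1 or more that passed the test, Ctnna1, the alpha-catenin of most tissues, was higher in knockout cells at TN day 6 by 1.01 ± 0.10, while Ctnna2 was lower. Foxp4 (1.43 ± 0.10), Dab2 (1.78 ± 0.39) and Dpp4 (1.16 ± 0.22) were also higher there, and Dab2 and Dpp4 at TN day 2 as well. Those that were lower at TN day 6 were B3galt2, Nkain3 and Sgcd, which span 9.2 kb, 669.7 kb and 1018.4 kb. The long paralogs Ctnna3 (1573.6 kb) and Thsd7b (946.1 kb) were called in none of the 6 comparisons, with changes at TN day 6 of -0.12 and -0.32. With ICRF-193 Nkain3 and Tcf12 were lower at TN day 5, and in cortical neurons Sgcd was lower and Dab2 higher.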

How the data were processed

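RNA of mouse cells was measured on 28 Affymetrix arrays in 12 groups. The authors deposited 1 normalized value per probe set and array. The values were read as log2 from their range (1.96 to 13.99), and the submitters' processing notes name oligo 1.14.0; how background, summarization and normalization were done is not given in the sources used here. Of 35556 probe sets, 21789 had 1 gene symbol in the platform annotation, 1621 had several and 12146 had no entry. The brightest probe set of each of 19938 genes was kept, with spans from RefSeq (GRCm38.p6) for 19916. Magi2 and Immp2l are not analysed here.

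A group-means model over all 12 groups was fitted with limma 3.58.1 in R 4.3.3, without covariates (16 residual and 4.87 prior degrees of freedom). Thus groups share 1 estimate of the spread, and the median standard error was 0.14 between groups of 2 and 0.12 between groups of 3. Every adjusted p of a gene in the main fit is limma's with Benjamini-Hochberg adjustment over all 19938 genes, and a call is an adjusted p under 0.05. Adjusted p values of probe sets fitted separately came from another limma fit, of probe sets in place of genes. The number of arrays limits the precision. On simulated data for 200 changed genes, the test recovered 90.5% at a log2 change of 1 and 26% at 0.5 for TN day 2, and 95.5% and 39.5% for TN day 6.

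The genes, roles, paralogs and markers were chosen with earlier results of these data known. Single-array values are given for the 8 called genes with the largest change in each comparison, up to 4 of the opposite direction, those called in all 4 comparisons of TN and cortical cells and those called in none; other genes printed were chosen after their values were seen. Alternatives were median centring, quantile normalization, a filter on low values with a cut of 6.7, a fit of only the arrays compared, array weights, an intensity trend, the mean of all probe sets, a replicate block and leaving out each array. The filter did not act on the mean over all arrays, since genes with a lower mean, such as Sgcz, passed it.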

Additional observations from a re-analysis of the deposited data

Results flagged for a closer look

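A test of the difference between changes singled out 12 of the 42 genes between the knockout effects of TN day 2 and NP cells, 6 between those of TN day 6 and TN day 2, 16 between the ICRF-193 effects of cortical neurons and TN day 5, and 14 between the ICRF-193 effect at TN day 5 and the knockout effect at TN day 6. In these tests 12 of the 42 were lower and 0 higher, then 6 and 0, 8 and 8, and 13 and 1. The shares of all genes lower and higher were 1.33% and 1.38%, then 2.09% and 2.71%, 2.68% and 1.69%, and 5.19% and 1.89%. The values of the differences of 1 or more on the log2 scale follow, each the change named first minus the other.

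The knockout effect at TN day 2 minus that in NP cells was -1.13 for Dlg2, -1.62 for Ctnna2, -1.15 for Rbfox1, -1.25 for Brinp1, -1.27 for Grid1 and -1.29 for Galnt13. Of these genes all but Ctnna2 had wild-type NP means below the cut of 6.7 of the filter on low values. The knockout effect at TN day 6 minus that at TN day 2 was -1.05 for Astn2, -1.08 for Lrp1b, -1.14 for Sgcz and -1.19 for Galnt13. The ICRF-193 effect in cortical neurons minus that at TN day 5 was -1.29 for Ank2, -1.37 for Dlg2, -1.37 for Dab1, -1.6 for Foxp1 and -1.59 for Csmd3, and 1.04 for Astn2, 1.24 for Brinp1 and 1.24 for Galnt13. The ICRF-193 effect at TN day 5 minus the knockout effect at TN day 6 was -1.01 for Akap6, -1.25 for Ctnna2, -1.35 for Ctnnd2, -1.1 for Npas3, -2.05 for Tcf4, -1.09 for Brinp1, -1.15 for Nkain2 and -1.04 for B3galt1. In the last comparison the day of culture and perhaps the genotype differ as well as the perturbation, which cannot be told apart.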

How the results depend on the processing

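Of 122 calls of these genes in the 6 comparisons, 96 held under every alternative run and 26 were lost under at least 1, of which 13 at TN day 2; no call changed direction. With only the arrays compared, 12 genes were called at TN day 2 instead of 23. Leaving out each array in turn gave 0 to 15 called genes in ES cells (15 without knockout replicate 2 and 1 without knockout replicate 1), 0 to 1 in NP cells (1 without wild-type replicate 2), 13 to 24 at TN day 2 (13 without knockout replicate 2), 30 to 31 at TN day 6, 28 to 31 at TN day 5 and 32 to 33 in cortical neurons. The difference of knockout effects between TN day 2 and NP cells called 4 to 14 genes, and that between TN day 6 and TN day 2 called 3 to 8. Same-numbered arrays did not qualify as pairs: their deviations correlated at -0.019 to 0.071 at TN day 6, at -0.062 to -0.013 in cortical neurons, and with 2 pairs only at 0.379 at TN day 5. With the replicate number as a block 26 genes were called at TN day 2, 34 at TN day 6, 31 at TN day 5, 35 in cortical neurons and 0 in ES and NP cells. In NP cells the correlation was -0.23, and crossing the numbers, an alternative chosen after seeing the data, left 0 called genes there. The filter on low values kept 40 of the 42 genes and 12602 of all genes. The cause of these shifts was not tested, beyond the smaller number of arrays in the fits that leave arrays out. Signal over background is not given by the values, so genes near the low end, such as Lrp1b, Sgcz and Fhit, have the least certain levels.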
